A study of Mus musculus with 2 samples.

Results

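The cells described here were the basophil and mast cell lineage of GM-CSF-supplemented mouse bone marrow (BM) cultures, a rare population picked out of 2 single-cell RNA-seq libraries by its own transcripts. A cell was taken as a member when its barcode was called a hashtag singlet, had 500 or more detected genes and under 15% mitochondrial unique molecular identifiers (UMIs, each standing for 1 captured transcript), and held 3 or more UMIs of Cpa3. It also had to carry 2 or more UMIs of Ms4a2, Fcer1a and Mcpt8 together and 0 UMIs of Klf1, an erythroid transcription factor. This gave 158 members among 11607 kept cells of the control library and 202 among 13614 of the heme library, 360 of 25221 in all. The members were thus selected on their UMIs of Cpa3, Ms4a2, Fcer1a, Mcpt8 and Klf1. Because these counts chose them, the levels of those genes, and every contrast of members with the remaining cells, are given as a description without a test.

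Basophils and mast cells are granulocytes of type 2 immunity that arise from BM progenitors under the transcription factor GATA2. Both carry the high-affinity IgE receptor and release histamine, leukotrienes and cytokines when it is cross-linked. In the mouse, the proteases Mcpt8 and Prss34 belong to basophil granules, whereas chymases, tryptases, the stem cell factor receptor Kit and the transcription factor Mitf mark mast cells. GM-CSF signals through the common beta chain that also serves the receptor for IL-3, the main growth factor of basophils.

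C57BL/6 mice of 8 to 10 weeks provided the BM, from which lineage-negative (Lin-) progenitors were plated in 20 ng/ml GM-CSF, and fresh medium with 40 ng/ml followed on day 2. Albumin alone (control) or 300 µM heme-albumin (heme) was given on day 3, and harvests were made on days 4, 5 and 7. Each library was a pool of 5 hashtagged cultures named for days 0, 3, 4, 5 and 7, so that the cultures of days 0 and 3 carry no exposure by their labels in either library. No IL-3 or stem cell factor is named among the culture additives, the number of mice behind a library is not given in the sources used here, and the stated exposure times of 24, 72 and 96 h do not all match these days, so hashtag days are used throughout. With 1 library a group, no comparison of control with heme has a replicate check, and no p-value is given.

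The control library held 198754588 gene UMIs in 13961 barcodes and the heme library 333481636 in 17378. Members were shallower than the cells around them. On day 0 the median member held 4296 UMIs in the control and 5554 in the heme library, against 10614 and 10958 in the other kept cells. The libraries shared 112 barcodes, of which 48 were kept in both and 0 were members. Levels are given as CPM, the UMIs of a gene summed over the members of a group, divided by all their UMIs and scaled to 1000000. Shares carry exact Clopper-Pearson 95% intervals and ratios exact Poisson 95% intervals, both of which cover counting error only and not the spread between cultures or animals.

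The promoters of the genes that define these cells are printed first, since GATA factors read short AGATAA or TGATAA letters and Gata2 itself was high in the members. RefSeq entries on GRCm38.p6 were found for every gene searched. The windows below hold the 120 bases before each gene's start, 5' to 3' on the gene's strand, and capitals mark AGATAA or TGATAA on either strand, which reads TTATCT or TTATCA on the reverse. Cpa3, Ms4a2 and Prss34 are members' hallmark genes, and Cd200r3 encodes a basophil surface receptor that the selection did not use.
Cpa3 promoter, chr3:20242182-20242301, minus strand: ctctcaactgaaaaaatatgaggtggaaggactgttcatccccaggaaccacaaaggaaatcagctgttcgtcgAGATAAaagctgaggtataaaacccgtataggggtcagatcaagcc
Ms4a2 promoter, chr19:11623720-11623839, minus strand: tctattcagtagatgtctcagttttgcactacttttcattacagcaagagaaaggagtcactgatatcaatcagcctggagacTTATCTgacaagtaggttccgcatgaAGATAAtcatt
Prss34 promoter, chr17:25298274-25298393, plus strand: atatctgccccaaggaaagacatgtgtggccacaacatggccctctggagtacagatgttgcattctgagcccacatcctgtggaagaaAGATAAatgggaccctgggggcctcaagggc
Cd200r3 promoter, chr16:44943558-44943677, plus strand: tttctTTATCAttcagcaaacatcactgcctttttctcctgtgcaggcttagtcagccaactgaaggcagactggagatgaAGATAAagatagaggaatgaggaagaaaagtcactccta
Cpa3 held 1 match, which began 46 bases before the start, and Prss34 held 1, which began 31 bases before it. Ms4a2 held 2 matches in the window, at 37 and 11 bases, and Cd200r3 held 2, at 115 and 39 bases. Of the genes not printed, Fcer1a held 1 at 92 bases, and the later-day genes Csf2rb2 and Slpi held 1 each, at 38 and 17 bases. Of 32851 RefSeq promoters, 7.63% carried such letters in a window of 120 bases and 16.6% in 250 bases. No match lay in the 250 bases before the start of Mcpt8, Gata2, Hdc, Cyp11a1, Akr1c18 or Ccl6. A match of letters is a description of the window and does not show binding.

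The members belonged above all to the starting population. On day 0 they made up 93 of 1646 kept cells in the control library, 5.65% (95% interval 4.58 to 6.88), and 131 of 1827 in the heme library, 7.17% (6.03 to 8.45). In the control library the share was 1.20% on day 3 (25 of 2089), 0.972% on day 4 (22 of 2263), 0.577% on day 5 (15 of 2601) and 0.0997% on day 7 (3 of 3008). In the heme library it was 0.746% on day 3 (25 of 3351), 0.567% on day 4 (17 of 2999), 0.638% on day 5 (17 of 2665) and 0.433% on day 7 (12 of 2772). Day 0 therefore held 58.9% of all control members and 64.9% of all heme members. In both libraries the day 0 interval lay above those of all later days, which overlapped with each other in the heme library.

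Heme and control cultures held similar shares after exposure, apart from the last day. Over days 4, 5 and 7 the share was 0.508% in the control (40 of 7872) and 0.545% in the heme library (46 of 8436), a difference of 0.0372 percentage points with an interval of -0.197 to 0.269. On day 7 the heme share exceeded the control share by 0.333 points (0.0497 to 0.665), which rests on 12 and 3 cells. On day 0, before any exposure, the heme library held 1.52 points more (-0.155 to 3.19). That direction turned with ribosomal UMIs limited to under 30%, which left 65 of 366 control cells (17.8%) and 121 of 1361 heme cells (8.89%) of day 0. The intervals of the differences on days 3, 4 and 5 all included 0. They were combined from the intervals of the single shares and speak of these libraries only.

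**Figure D1:**
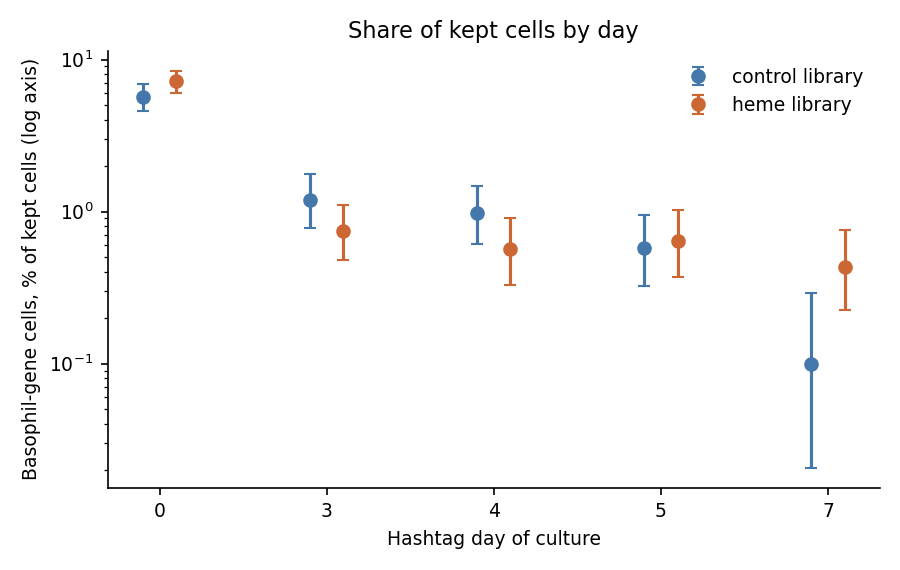
Share of kept cells that were members (vertical axis, percent, log scale) by hashtag day (horizontal axis) in the control and heme libraries, with points for shares and bars for exact 95% intervals. Both libraries start at 5.65% and 7.17% on day 0 and stay at or below 1.20% from day 3, and on day 7 the control share is 0.0997% and the heme share 0.433%.

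None of the 10 genes taken as most like the members' share over the 10 cultures was a gene of the lineage. By Spearman rank correlation over the 10 cultures, Rpl7l1, a ribosome assembly factor, came first of 9516 genes with rho 0.976, and Srm, Eif2s1, Idh3a, Dtd1 and Yars2 followed with rho 0.964. They include genes of polyamine synthesis, translation initiation and metabolism. The tenth-ranked value was reached by 25 genes, and ties at it were cut by level, so the tied genes left out were not looked at. The cultures share libraries and days, and the order is a description.

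At the start of the cultures the members carried a basophil granule programme. Of the 15 genes listed as granule proteases and serglycin, 6 had 50 or more UMIs in the contrast of members with other day 0 cells. All 6 were 2-fold or more higher in the members of both libraries (with 10 CPM added to both sides). Cpa3 and Mcpt8, which the selection used, are among the 6. Over all 10027 genes with enough UMIs, 4.37% were that much higher and 2.63% that much lower, a contrast that the selection fixed in part. Prss34, a basophil tryptase-like protease that the selection did not use, stood at 29077 CPM in control and 15401 CPM in heme members of day 0, against 45.4 and 49.4 CPM in the other cells of that day. Mcpt8 stood at 14705 and 10376 CPM, and Cpa3, a carboxypeptidase that trims peptides inside the granule, at 3431 and 2816 CPM, and both were among the genes of the selection. Srgn, the proteoglycan serglycin that packs granule proteases, was at 2932 and 2315 CPM, 4.86-fold (4.59 to 5.15) and 4.12-fold (3.93 to 4.32) above the other cells.

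The IgE receptor and the surface receptors followed. The alpha chain Fcer1a was at 1201 CPM in control and 693 CPM in heme members of day 0, and the beta chain Ms4a2 at 1057 and 1224 CPM, both part of the selection. The signalling gamma chain Fcer1g, shared with Fc receptors of other myeloid cells, was at 1732 and 1032 CPM against 218 and 204 CPM in the other cells. Of 15 genes of the IgE receptor pathway, 6 were 2-fold or more higher in the members, and Fcer1a and Ms4a2 of the selection are among the 6. The kinases Lyn (42.7 and 64.8 CPM) and Syk (42.7 and 83.7 CPM) were within 2-fold of the other cells' levels. Among the cytokine and surface receptors, 15 of 19 with enough UMIs were 2-fold or more higher and 0 were lower, with a median log2 ratio of 2.35 against -0.07 over all genes. Cd200r3, an activating receptor of basophils, was at 468 and 510 CPM against 3.44 and 3.66 CPM. Il3ra, the IL-3 receptor alpha chain, was at 182 and 121 CPM, and Il18rap, a chain of the IL-18 receptor, at 133 and 218 CPM.

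Genes for the mediators that basophils release were high as well, 10 of 13 by 2-fold or more. Hdc, the enzyme that makes histamine, stood at 1138 and 1229 CPM against 27.9 and 33.4 CPM in other day 0 cells. Alox5, the lipoxygenase that opens leukotriene synthesis, was at 252 and 313 CPM against 3.06 and 8.35 CPM. The chemokine Ccl3 was at 1190 and 787 CPM, although reads of Ccl3 may be shared with close relatives. Cytokine transcripts were sparse. Il6 was at 67.5 and 123 CPM and was found in 24 of 93 and 44 of 131 members, while Il4, the signature cytokine of basophils, was at 51.7 and 27.1 CPM in 18 and 19 members.

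Among 18 lineage transcription factors with enough UMIs, 5 were 2-fold or more higher in the members and 4 lower. Gata2 was at 679 CPM in control and 1251 CPM in heme members against 35.0 and 59.7 CPM in other cells. Cebpa, which with GATA2 sets the granulocyte fate, was at 211 and 234 CPM, and the LIM protein Lmo4 at 691 and 798 CPM. Factors of the erythroid and megakaryocyte branch were below the other cells. Gata1 was at 22.5 and 35.4 CPM against 102 and 99.0 CPM. Of 14 erythroid genes 10 were 2-fold or more lower, and Klf1, which the selection held at 0 UMIs, is among them. The carbonic anhydrase Car1 was at 6.75 and 17.7 CPM against 1642 and 1001 CPM. Hemoglobin was the exception in the heme library, where Hba-a1 summed to 291 UMIs in 5 of 131 members and to 2 UMIs in 2 of 93 control members, and its reads cannot be told apart from those of its near-identical copy. Beta chains were found in more cells, with 1313 UMIs of Hbb-bs in 67 and 447 of Hbb-bt in 37 members over both libraries and all days. Of 6 erythroid genes with enough UMIs, 5 were 2-fold or more higher in heme than in control members of day 0, against 12.2% of all genes.

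Outside the lists, the 15 genes highest in members against other day 0 cells were led by Rnase12, a ribonuclease-family gene, at 376 and 258 CPM against 1.67 and 2.49 CPM. Cyp11a1, the mitochondrial enzyme that begins steroid synthesis from cholesterol, was second, at 254 and 299 CPM against 3.76 and 5.11 CPM. Others among them were Ets1, Fam129a, Csrp3, Ccr1, Cdh1, Cyp4f18, Stx3, Gpr34, Lilr4b, Padi2, Anxa1 and H2-Oa. They include the chemokine receptor Ccr1, the adhesion molecule E-cadherin (Cdh1), the lipid receptor Gpr34 and the leukotriene-degrading enzyme Cyp4f18. Lilr4b belongs to a family of close copies, and its counts are uncertain for that reason.

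Most genes listed for mast cells were at or near 0. Of 12 genes listed for mast cells, 6 had 0 UMIs over all 360 members, among them the chymases Mcpt1, Mcpt2, Mcpt4 and Mcpt9 and the receptors Mrgprb1 and Mrgprb2. The chymase Cma1 gave 2 UMIs, and the tryptases Tpsb2 and Tpsab1 gave 2 and 1. Mitf gave 15 UMIs in 12 members and Kit 108 UMIs in 57 members. Kit stood below the other cells on day 0, at 36.0 CPM in control and 89.6 CPM in heme members against 80.5 and 122 CPM. The label of a joint lineage is thus met on its basophil side, whereas the chymases and tryptases of the mast cell list gave 0 to 2 UMIs each over all members. Tpsg1, a tryptase listed with the granule proteases, gave 4 UMIs in 3 members. The granule protease Cpa3 is not on the mast cell list, and the selection required it of every member.

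The list's remaining signal came from Il1rl1, the receptor for IL-33, which basophils also carry. It gave 569 UMIs in 194 members, with a summed level of 49.5 and 120 CPM at the start and of 333 and 423 CPM in the later members. With each cell thinned to 3000 UMIs, 13 of 70 control and 50 of 104 heme members of day 0 held a UMI of both the basophil and the mast cell list. On days 4, 5 and 7 it was 22 of 36 and 37 of 45. The basophil list holds genes of the selection, which fixes most of these counts. Without those genes, thinned members with a mast cell gene and no basophil gene numbered 5 and 9 on day 0 and 0 in both libraries on days 4, 5 and 7. Thinning left out 31 control and 29 heme members, and without it the day 0 counts with both were 27 of 93 and 79 of 131.

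Prss34 split the day 0 members. In the control library 14 of 93 members held 0 or 1 Prss34 UMI, 1 held 2 to 9, and 78 held 10 or more. In the heme library the numbers were 35, 3 and 93 of 131. Of the cells with 0 or 1 UMI, 10 of 14 and 30 of 35 held a Ms4a2 UMI and 12 of 14 and 21 of 35 a Mcpt8 UMI. Their Mcpt8 level was 516 CPM in the control and 505 CPM in the heme library, against 19181 and 16110 CPM in members with 10 or more Prss34 UMIs. Gata2 was at 220 against 824 CPM in the control and at 584 against 1628 CPM in the heme library. Cd200r3, free of the selection, was listed at 0 UMIs against 617 CPM in the control and at 72.0 against 769 CPM in the heme library.

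Several genes of early progenitors were higher in the Prss34-low members. Mpo, the peroxidase of primary granules, was at 2993 CPM in Prss34-low against 1856 CPM in Prss34-high control members, and at 4017 against 2111 CPM in the heme library, where the shares of cells with Mpo were 77.1% and 77.4%. Myb, a factor of progenitors, was at 803 against 211 CPM and at 810 against 393 CPM. The progenitor antigen Cd34 was at 249 against 26.7 CPM and at 220 against 48.6 CPM, and Kit was at 124 against 8.90 CPM and at 161 against 48.6 CPM. All 4 were higher in the Prss34-low cells of both libraries. Ctsg, the granule protease cathepsin G of the granulocyte progenitor list that holds Mpo, went the other way. It was at 1444 against 3226 CPM in the control and 591 against 1138 CPM in the heme library. The proliferation gene Mki67 did so too, at 191 against 386 CPM and at 168 against 507 CPM. Top2a, a gene of mitosis, was at 335 against 587 CPM and at 494 against 816 CPM. The Prss34-low cells were also deeper, with medians of 6773 against 4040 UMIs in the control and 8124 against 4920 in the heme library, and their ribosomal protein share was 34.8% against 20.5% and 28.3% against 16.7%. Within day 0 the rank correlation with Prss34 over cells was 0.849 (n = 93) and 0.906 (n = 131) for Mcpt8, -0.351 and -0.241 for Mpo and -0.581 and -0.457 for Myb. Cells of 1 library share depth and composition, so these correlations are descriptions.

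**Figure D2:**
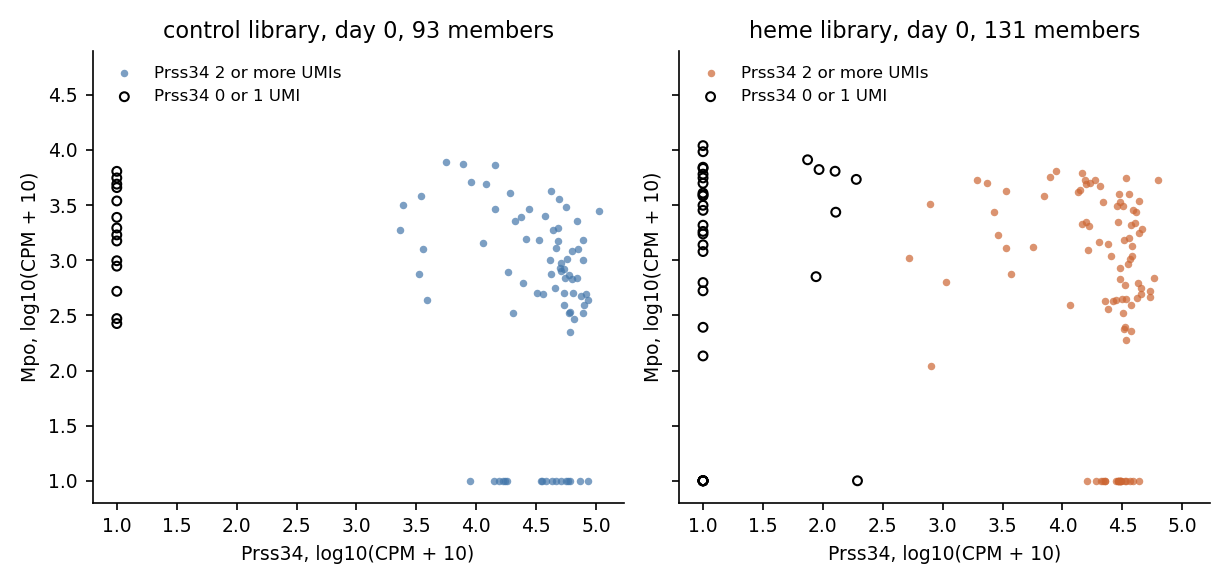
Prss34 (horizontal axis) against Mpo (vertical axis) in each day 0 member, both as log10(CPM + 10), for the control (93 members) and heme library (131 members), with open circles for the 14 and 35 members with 0 or 1 Prss34 UMI. Open circles stand at the left edge, and 14 of 14 and 27 of 35 of them hold Mpo, while filled points spread over the Mpo range, including cells at 0.

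Cells on either side of the limits of the selection were compared last. Members whose Ms4a2, Fcer1a and Mcpt8 UMIs summed to just 2 numbered 5 and 9, with Prss34 at 0 and 6.12 CPM and Mpo at 3583 and 3899 CPM. Cells just outside with a sum of 1 numbered 11 and 17, with Prss34 at 88.2 and 4.91 CPM and Mpo at 2380 and 5115 CPM. Members with exactly 3 Cpa3 UMIs numbered 9 and 10 and held 5773 and 2937 CPM of Prss34. Cells outside with 2 Cpa3 UMIs numbered 12 and 16 and held 3219 and 3681 CPM. A further 4 and 16 cells failed on Klf1 alone, and together held Car1 at 135 and 781 CPM. Of these, 2 and 13 had just 1 Klf1 UMI. They held Prss34 at 34882 and 5702 CPM and Car1 at 0 and 5.71 CPM, against 17957 and 9822 CPM and 9.37 and 13.5 CPM over all members.

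A few members carried eosinophil granule genes. Prg2, the major basic protein of eosinophils, summed to 915 UMIs in control and 696 in heme members, and 6 members in each library with 30 or more Prg2 UMIs held 94.9% and 97.3% of them. The same cells held 88.4% and 97.0% of the UMIs of eosinophil peroxidase (Epx) and 96.2% and 96.6% of those of Prg3, a second major basic protein. The control cells fell on days 0, 4, 4, 5, 5 and 7 and the heme cells on days 0, 0, 0, 5, 5 and 7. Prss34 was at 0 or 1 UMI in 4 such control cells and 5 such heme cells. One heme cell of day 7 had 48448 UMIs, the most of any member. These cells passed the selection with Cpa3 counts of 5 to 113 in the control and 3 to 76 in the heme library.

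Members of the later days differed from those of day 0 in a gene set shared by both libraries. The contrast was made within members only, so changes shared with the rest of the culture are part of it. Of 2027 genes with 50 or more UMIs in both libraries, 115 were 2-fold or more higher on days 4, 5 and 7 in both (5.67%) and 79 were lower in both (3.9%), a split of 59.3% higher that became 45.3% (117 and 141) with the mean of per-cell CPM and 67.9% (133 and 63) with TMM factors. The chemokine Ccl6 was among the highest of them. Its summed level by day 0, 3, 4, 5 and 7 was 229, 7362, 14007, 25192 and 13480 CPM in control members, and 402, 5070, 20515, 15793 and 10362 CPM in heme members. Every day after day 0 was thus above day 0 in both libraries, and the ratio of later days to day 0 was 73.8 (60.7 to 90.7) and 39.0 (35.0 to 43.6).

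Akr1c18, a steroid-reducing enzyme, had 0 UMIs in all day 0 members and 136 and 266 UMIs on days 4, 5 and 7. With day 0 set to a floor of 3 UMIs, the ratios were 73.0 and 152, which depend on that floor. Thinned to 3000 UMIs, 15 of 36 control and 14 of 45 heme members of the later days held a UMI of it, and at this level cells without a UMI cannot be told apart from cells that lack it. Reads of Akr1c18 may be split with Akr1c12 and Akr1c13. Cyp11a1 was at 1486 CPM in control and 1306 CPM in heme members of the later days, 5.85-fold (4.74 to 7.26) and 4.36-fold (3.77 to 5.07) above day 0, and was held by 36 of 36 and 40 of 45 thinned members. The protease inhibitor Slpi was 18-fold (15 to 21.7) and 31.1-fold (26.3 to 37.1) higher, with 26.4% of the later control UMIs in 1 member. F2r, the thrombin receptor, was 22.6-fold (8.34 to 85.7) and 71.5-fold (32.4 to 197) higher. The 10 highest also held Rnf128, S100a6, Hmgn3, Csf2rb2, Serpina3g and Adam8.

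The receptor chains of the GM-CSF and IL-3 axis differed from each other. Csf2rb2, the beta chain particular to mouse IL-3, was at 31.5, 246, 428, 740 and 663 CPM on days 0, 3, 4, 5 and 7 in the control library, whose day 7 is 3 cells. In the heme library it was at 68.3, 267, 938, 1251 and 810 CPM. The common chain Csf2rb was 4.50-fold (3.54 to 5.77) and 5.88-fold (5.12 to 6.78) above day 0, and the close sequence of the pair leaves their split uncertain. Il3ra, the alpha chain for IL-3, had ratios of 0.915 (0.623 to 1.33) and 0.933 (0.662 to 1.30). Of 3 cytokine feedback genes with enough UMIs, 1 was 2-fold or more higher in both libraries, the kinase Pim1, at 5.34-fold (3.74 to 7.78) and 3.72-fold (3.00 to 4.62). Below that minimum in the control, Cish, a feedback inhibitor of cytokine signalling, was 12.9-fold (5.09 to 41.8) and 7.18-fold (4.47 to 12.0) higher. Of 14 cytokine and surface receptors with enough UMIs 4 were higher and 0 lower, with a median log2 ratio of 0.54 against -0.07 over all genes. In the other kept cells the summed receptor list was at 502 CPM on day 0 and 2269 CPM later in the control library. In the heme library it was at 740 and 3198 CPM there. Members went from 4583 to 7529 CPM and from 4403 to 8285 CPM. The feedback list of the other cells rose as well, from 246 to 1185 CPM and from 378 to 1251 CPM. Il1rl1 was 6.74-fold (4.20 to 11.3) and 3.52-fold (2.76 to 4.50) higher.

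The mediator genes were mixed. Ccl9, a chemokine of myeloid cells, was 5.75-fold (4.65 to 7.14) and 4.19-fold (3.72 to 4.73) higher and Hgf, a growth factor that basophils release, 4.04-fold (2.98 to 5.53) and 2.90-fold (2.46 to 3.43), the 2 of 10 that passed 2-fold in both libraries. Hdc was lower, at ratios of 0.774 (0.661 to 0.903) and 0.520 (0.457 to 0.590), and Alox5 was at 1.71 and 1.34.

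The granule proteases did not move as a block. Cpa3 kept a ratio of 1.05 (0.968 to 1.14) in control and 0.856 (0.798 to 0.918) in heme members, and 3 UMIs of it were a condition of selection on every day. Mcpt8 was at 0.545 (0.519 to 0.572) and 0.514 (0.492 to 0.537) of its day 0 level. Prss34 was at 0.276 (0.264 to 0.289) and 0.172 (0.163 to 0.182). The median member held 37555, 9694, 9827, 7120 and 13440 CPM of Prss34 on days 0, 3, 4, 5 and 7 of the control library, and 20665, 7531, 3494, 919 and 722 CPM in the heme library. Single cells overlapped between days, from 0 to 106546 CPM on day 0 and from 0 to 36131 CPM on day 4 of the control library. Thinned to 3000 UMIs, Prss34 was found in 80.0% of 70 and 71.2% of 104 members on day 0 and in 91.7% of 36 and 77.8% of 45 on the later days (84.9% and 78.6%, then 92.5% and 87.0%, without thinning).

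**Figure D3:**
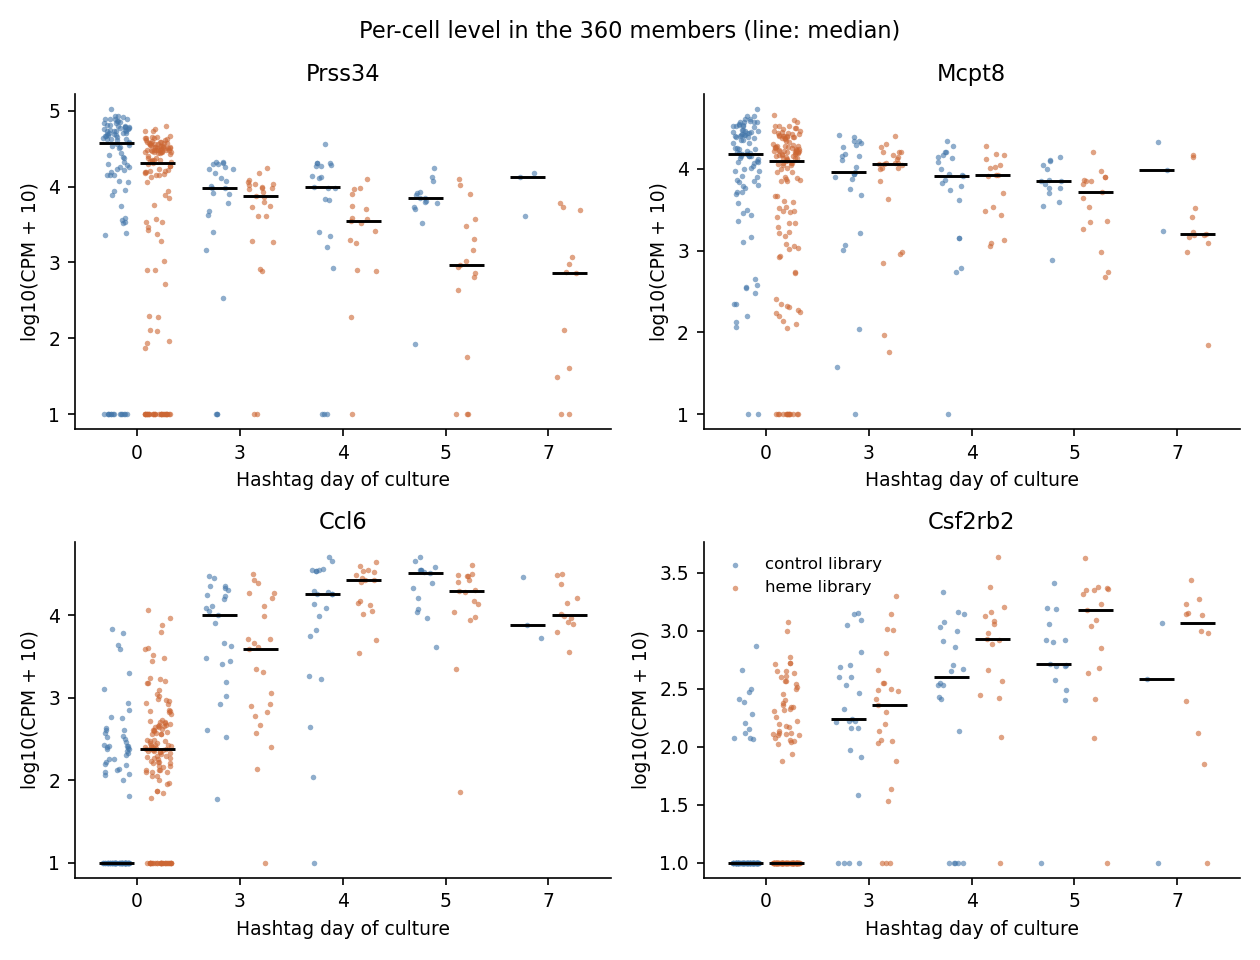
Level of Prss34, Mcpt8, Ccl6 and Csf2rb2 in each of the 360 members (vertical axes, log10(CPM + 10)) by hashtag day (horizontal axes) for the control and heme libraries, with a point for each cell and a line for the median. Median Ccl6 is 0 CPM at the start of the control library and peaks at 32323 CPM on day 5, while median Prss34 is 20665 CPM at the start of the heme library and 722 CPM at its end.

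Progenitor genes were lower after day 0. Of 8 granulocyte progenitor genes 4 were 2-fold or more lower in both libraries and 1 higher, and all 3 stem and early progenitor genes with enough UMIs were lower, with medians of -1.85 and -2.17 on the log2 scale. Mpo was at 0.142 (0.112 to 0.178) and 0.0228 (0.0155 to 0.0325) of its day 0 level. It was found in 88.6% and 78.8% of thinned day 0 members and in 19.4% and 11.1% of the later ones (81.7% and 77.9%, then 30% and 30.4%, without thinning). Sox4, a factor of immature cells, summed to 83 and 273 UMIs on day 0 and to 3 and 5 on the later days. Apoe, an apolipoprotein, went from 459 to 9 UMIs and from 508 to 2. Jun, an immediate early transcription factor, was at 0.0802 (0.0379 to 0.150) and 0.0680 (0.0392 to 0.110), and Lmo4 at 0.194 and 0.139. Jun was the only 1 of 7 immediate early genes with enough UMIs to be 2-fold lower in both libraries. The median log2 ratio of these 7 was -0.10, against -0.07 over all genes. The 10 lowest also held Ms4a6c, Hist1h2ac, Nkg7, Csrp3, Vamp5 and Elane, and histone genes such as Hist1h2ac share reads with close copies.

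Few cell cycle genes passed 2-fold. Of 10 S phase genes 1 was 2-fold or more lower, with a median log2 ratio of -0.70, and of 10 genes of G2 and mitosis 0 passed 2-fold in both libraries, with a median of -0.55. Mki67, the proliferation antigen, was found in 47.1% and 44.2% of thinned day 0 members and in 25% and 8.89% of the later ones (48.4% and 50.4%, then 35.0% and 32.6%, without thinning).

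**Figure D4:**
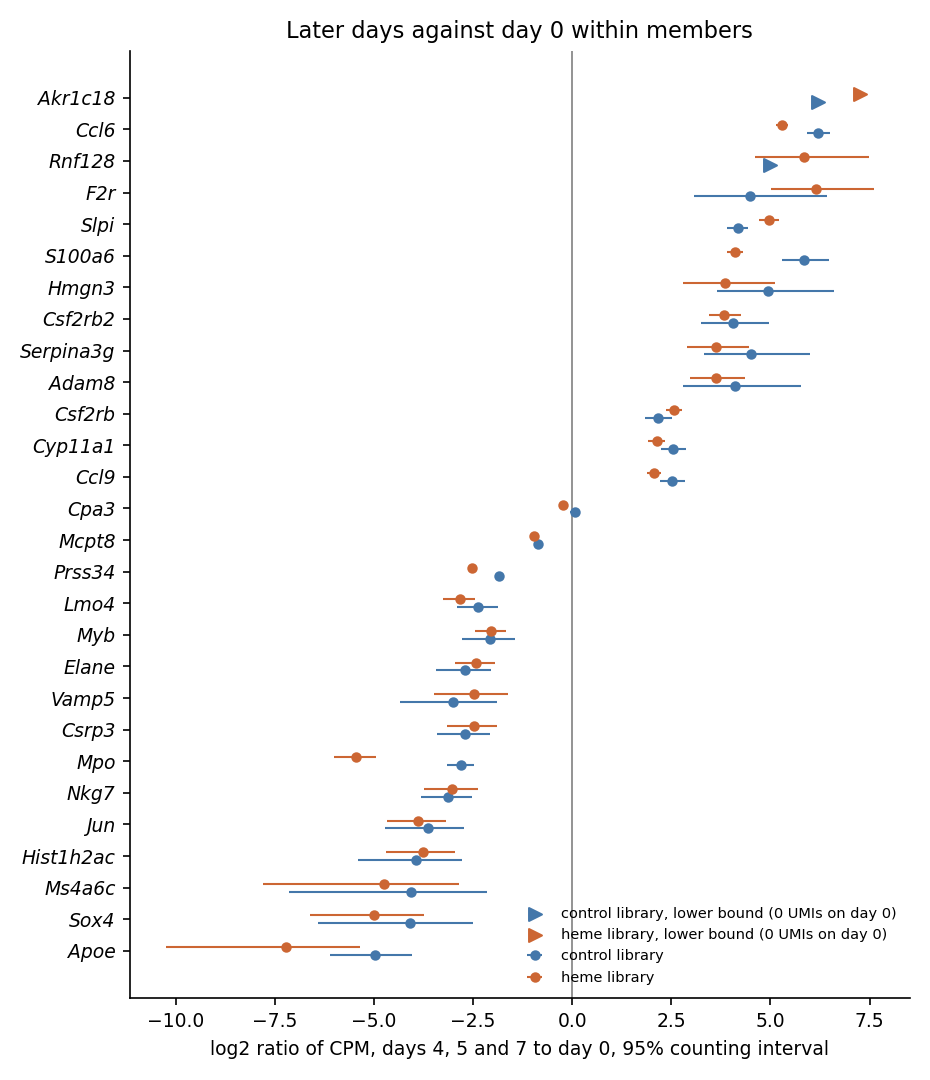
Ratio of CPM on days 4, 5 and 7 to day 0 within members (horizontal axis, log2) for genes named in the text, in the control and heme libraries, with bars for exact 95% counting intervals. Triangles, labelled lower bound, mark ratios of genes with 0 UMIs on day 0, which was set to a floor of 3 UMIs. Akr1c18 stands 73.0-fold and 152-fold above that floor, Cpa3 sits near no change at 1.05 and 0.856, and Apoe lies lowest.

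The comparison of heme with control after exposure asks how members of heme-treated cultures differed. In members of days 4, 5 and 7, 268 of 2439 genes with 50 or more UMIs were 2-fold or more higher in the heme library (11%) and 63 were lower (2.58%). In members of day 0, before exposure, 484 of 3976 were higher (12.2%) and 56 lower (1.41%). The share of higher genes was therefore close before and after exposure. The split depended on scaling. With TMM factors the counts were 177 higher and 121 lower on the later days (59.4% higher, against 81.0% by summed CPM) and 220 and 231 on day 0 (48.8%). With DESeq2 size factors they were 173 and 125 (58.1%) and 234 and 215 (52.1%). TMM factors moved the median of all genes from 0.10 to -0.10 and from 0.25 to -0.06 on the log2 scale. A gene is therefore read against its own day 0 and day 3 ratio.

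The gene nearest to the treatment already differed on days 0 and 3, whose cultures carry no exposure by their labels. Hmox1, the oxygenase that degrades heme, gave 3 UMIs in control members of days 4, 5 and 7 and 858 in heme members, 10.9 against 1735 CPM, a ratio of 160 (54.4 to 775). The ratio was 88.0 (15.6 to 3496) on day 0 and 35.2 (6.04 to 1415) on day 3, from 1 control UMI each, and these intervals overlap with that of the later days. By day 0, 3, 4, 5 and 7 it was found in 1 of 93, 1 of 25, 2 of 22, 0 of 15 and 1 of 3 control members. In the heme library it was found in 91 of 131, 18 of 25, 17 of 17, 16 of 17 and 11 of 12. The heme library thus held Hmox1 on barcodes labelled day 0 and day 3 too. Its members stood at 198, 146, 1168, 1303 and 2686 CPM by day. The other cells of day 0 showed the same gap, at 1.83 CPM in the control and 121 CPM in the heme library, and the source of the early signal was not tested. Neutrophils rich in Camp, an antimicrobial granule peptide, held a Hmox1 UMI in 82.5% to 97.4% of cells on days 3 to 7 of the heme library and in 18% to 19.9% on days 3 to 5 of the control. Within the heme library, members of the later days were 8.76-fold (7.42 to 10.4) above those of day 0.

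The ferritin chains, which store iron, followed the exposure more closely. Fth1 was at 1507, 2819, 2276, 3509 and 5230 CPM on days 0, 3, 4, 5 and 7 in control members and at 2571, 2162, 15077, 17088 and 19851 CPM in heme members. Deep cells weigh on these sums, and 1 member held 18.1% of the later heme UMIs. The median heme member held 7820, 10984 and 15455 CPM on days 4, 5 and 7, against 2260, 4009 and 2987 CPM in the control. All later heme days were above every control day, and the later ratio was 6.29 (5.84 to 6.79) against 1.71 on day 0 and 0.767 on day 3. Ftl1 was 2.72-fold (2.55 to 2.90) higher on the later days, at ratios of 0.953 on day 0 and 0.638 on day 3. Reads of both may be shared with processed pseudogenes. Slc40a1, the iron exporter ferroportin, gave 0 UMIs in control and 52 in heme members of the later days. With the control set to the floor of 3 UMIs, its ratio was 9.67. Of the 52 UMIs 1 member held 48.1%, and without the 3 members with most UMIs in each library this ratio was 5.18. Over the list of heme and iron genes, 6 of 8 were 2-fold or more higher on the later days and 0 lower, with a median log2 ratio of 1.60 against 0.10 over all genes, and on day 0 it was 4 of 9 with a median of 0.77 against 0.25.

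Genes of the NRF2 oxidant response were higher as a group on the later days, 8 of 16 with 0 lower and a median log2 ratio of 1.15, and 1 of 13 on day 0 with a median of 0.47. Gclm, a subunit of the enzyme that limits glutathione synthesis, was at 167 CPM in control and 734 CPM in heme members, a ratio of 4.40 (3.23 to 6.12) against 1.46 on day 0 and 0.928 on day 3. The cystine importer Slc7a11 was 9.94-fold (6.11 to 17.3) higher, but also 18.9-fold (3.17 to 765) on day 0, where the control held 1 UMI. Prdx1, a peroxiredoxin, was 3.72-fold (3.11 to 4.47) higher against 0.985 on day 0. Of its heme UMIs 38.6% came from 1 member. The other kept cells of the same days showed ratios of 51.1 for Hmox1, 3.31 for Fth1, 8.53 for Gclm and 3.84 for Prdx1.

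**Figure D5:**
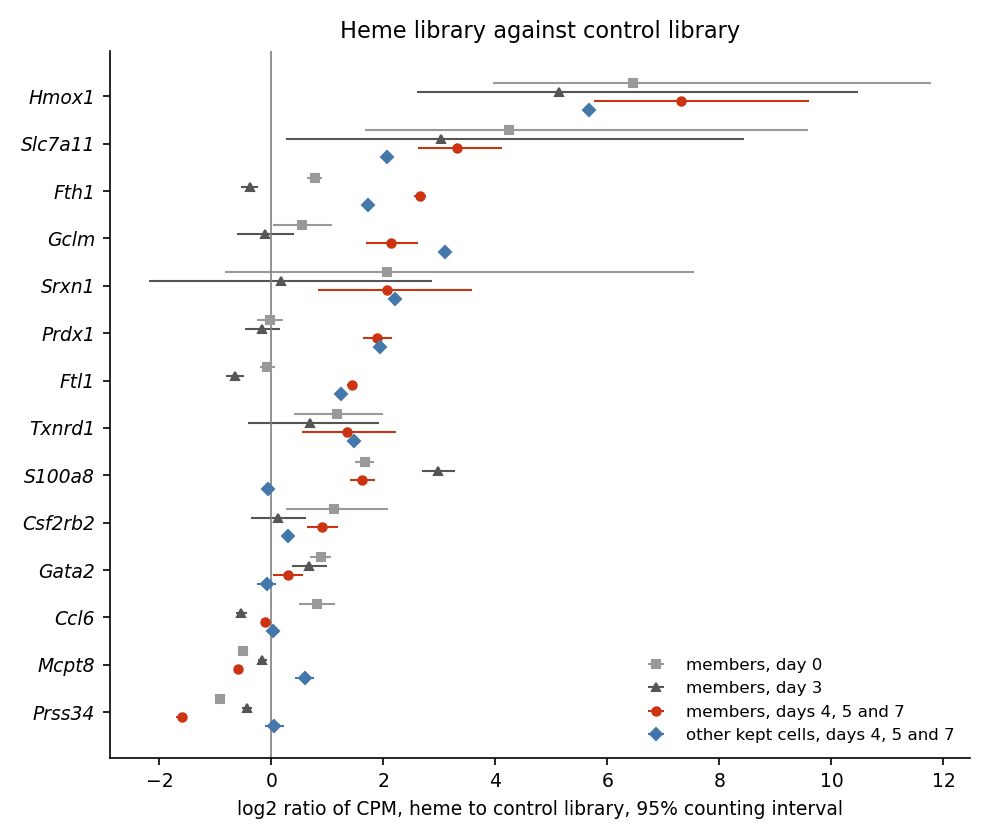
Ratio of heme to control library (horizontal axis, log2 of CPM ratio) for 14 genes in members of day 0, of day 3 and of days 4, 5 and 7, and in other kept cells of days 4, 5 and 7, with bars for exact 95% counting intervals. Fth1, Gclm and Prdx1 in members are near or below 1.71-fold before exposure and at 6.29, 4.40 and 3.72 after it, while Hmox1 is 35.2-fold or more higher on all days.

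The basophil proteases were lower in the heme library, on day 0 as well as later. Prss34 was at 8036 CPM in control and 2653 CPM in heme members of the later days, a ratio of 0.330 (0.308 to 0.354), against 0.530 (0.517 to 0.543) on day 0 and 0.738 (0.695 to 0.783) on day 3. Mcpt8 was at 0.665 (0.628 to 0.704), against 0.706 (0.683 to 0.729) on day 0. By summed CPM, Mcpt8 was lower in the heme library on day 3 as well. By per-cell median, a different measure, the day 3 direction was opposite, at 9234 CPM in the control and 11541 CPM in the heme library. Fcer1a and Ms4a2 had later ratios of 0.879 (0.690 to 1.12) and 0.882 (0.712 to 1.09), whose intervals include 1. Gata2 was at 1.23 (1.02 to 1.49), and at 1.84 (1.62 to 2.10) on day 0. Of 7 basophil-side genes with enough UMIs 0 were higher and 1 lower by 2-fold, with a median log2 ratio of -0.19. The mediator genes had 0 of 10 past 2-fold, with Hdc at 0.725 (0.612 to 0.861) and Alox5 at 0.975 (0.775 to 1.23).

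Other genes lower in heme members included Mpo, at 301 against 62.7 CPM, a ratio of 0.208 (0.133 to 0.318). On day 0 Mpo was 1.30-fold (1.2 to 1.4) higher in the heme library, the opposite direction, and 39.8% of the later control UMIs came from 1 of 40 members. Ctsg, cathepsin G, was at 0.207 (0.170 to 0.251), and at 0.336 (0.307 to 0.368) on day 0. Ier2, an immediate early gene, was at 0.265 (0.185 to 0.376) against 0.898 (0.748 to 1.08) on day 0. The 10 lowest also held Ccl5, Pkib, Ly6g, Ifi27l2a, Prg3, Arsb and Akr1c12. For Ccl5 a single control cell held 97.3% of the later UMIs. Of 4 eosinophil genes 3 were 2-fold or more lower, which rests on the few Prg2-rich cells above.

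The other genes of the 10 highest in the heme library rested mostly on few cells. They were Wfdc17, Clec7a, Clec4n, Plet1, Pf4, Lpl, Cxcl3, Cybb and Cd36. Clec7a, the beta-glucan receptor dectin-1, gave 2 UMIs in control and 176 in heme members, a ratio of 49.1 (13.4 to 409), and 1 member held 74.4% of them. The single top member held 95.2% of the heme UMIs of Cxcl3, 88.9% of Plet1, 81.4% of Cd36 and 80.6% of Pf4. Without the 3 members with most UMIs in each library the ratio was 1.15 for Cxcl3, 3.16 for Plet1, 3.45 for Cd36, 11.8 for Clec7a and 38.4 for Wfdc17. For Hmox1 it was 136 and for Fth1 5.54. No doublet caller beyond the hashtags was run, and the part of doublets in these values was not tested.

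Markers of other cell types moved with the libraries. The summed neutrophil list was at 1840 CPM in control and 6091 CPM in heme members on day 0 and at 1747 and 5114 CPM on the later days, against 63870 and 59967 CPM in the other late cells. All 7 neutrophil genes with enough UMIs were 2-fold or more higher in the heme library on the later days, and all 6 on day 0. S100a8, an abundant neutrophil protein, was 3.08-fold (2.64 to 3.60) higher on the later days, and 3.17-fold (2.81 to 3.58) on day 0. The monocyte and macrophage list was at 497 and 1703 CPM in later members, and C1qa, C1qb and C1qc, complement genes of macrophages, gave 3, 1 and 1 UMIs over all members. The erythroid list was at 160 and 1829 CPM on day 0. The part of free RNA in these values was not tested. In Camp-rich neutrophils of days 3 to 7, a Mcpt8 UMI was found in 3.73% to 10.5% and a Prss34 UMI in 4.02% to 9.20% of cells in groups of 163 or more, and a Cpa3 UMI in 0% to 1.93%, at medians of 7168 to 14914.5 UMIs a cell.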

How the data were processed

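The 2 matrices of the series, for control and for heme cultures, were analysed. Per the labels and methods, libraries were made with the 10x 3' v3.1 chemistry from hashtagged cells. The authors deposited raw counts of UMIs per gene and barcode, aligned to GRCm38.p6, and their notes name Cell Ranger 4.0.0, Seurat 3.2.3 and Scanpy 1.6.0, while the matrix headers name cellranger 5.0.0. The hashtag calls (day, and singlet, doublet or negative) are the authors' own, deposited per barcode and made with HTODemux of Seurat, and were used unchanged. Hashtag doublets were left out, and doublets within 1 hashtag were not called. The study's upper limit of 5000 genes and its ribosomal limit of 30% were not applied, and were tried as alternatives. At 30% or more stood 29 control and 10 heme members. On day 0 the median ribosomal share was 23.1% in control members against 33.5% in the other kept cells. In the heme library it was 19.7% against 28.1%.

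Counts were summed over members by library and day (days 4, 5 and 7 pooled as later days) and divided by their total. Genes needed 50 UMIs together to enter a comparison and 2-fold to be counted. With 1 library a group, no test across samples exists. A gene with 0 UMIs on 1 side was set to a floor of 3 UMIs for the group. Detection was compared after thinning cells to 3000 UMIs. Named genes were the list genes with 10 or more UMIs over members, the 15 other genes highest in members against other day 0 cells (10 CPM added, 50 CPM or more in members of both libraries), the 10 highest and 10 lowest in each later contrast, and the 10 most like the share. Of these, 1 gene is not reported here. The members and the gene lists were chosen with earlier results of these data known. Alternatives covered other limits of the selection, TMM and DESeq2 scaling, per-cell means, no UMI minimum and leaving out members. Scripts were tested on simulated data and used Python 3.11.15, numpy 2.4.6, scipy 1.17.1, pandas 2.3.3, R 4.3.3, edgeR 4.0.16 and DESeq2 1.42.0.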

Additional observations from a re-analysis of the deposited data

Results flagged for a closer look

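Barcodes outside the singlet call, which no comparison above used, also held cells that met the same UMI conditions. Among hashtag doublets there were 34 of 1244 in the control library (2.73%, 95% interval 1.90 to 3.8) and 66 of 1951 in the heme library (3.38%, 2.63 to 4.28), at medians of 17876.5 and 31278 UMIs. Among barcodes with no hashtag call there were 4 of 402 (0.995%, 0.272 to 2.53) and 30 of 907 (3.31%, 2.24 to 4.69), at medians of 2249 and 2928.5 UMIs. Singlets met the conditions in 1.36% and 1.48%, at medians of 4841 and 6323 UMIs. Prss34 stood at 3989 and 2794 CPM in the doublets, at 12743 and 8540 CPM in the barcodes with no hashtag call, and at 17957 and 9822 CPM in the singlets.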

How the results depend on the processing

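The day 0 share moved with the selection of cells, from 5.65% to 17.8% in the control and from 7.17% to 8.89% in the heme library with ribosomal UMIs under 30%, which turned the difference between the libraries, to 8.61% in the heme library with at most 5000 genes, and to 4.09% and 5.42% with the rule applied after thinning. The genes higher in heme members of day 0 (484) numbered 220 with TMM factors, 234 with DESeq2 factors, 2202 with no UMI minimum and 312 in members with 10 or more Prss34 UMIs, and the lower ones (56) numbered 231, 215 and 424 under the first 3. On the later days the higher genes (268) numbered 177, 173, 1879 and 178 under the same 4 settings and 175 without day 7, and the lower ones (63) 121, 125 and 764 under the first 3. Without a UMI minimum the later days held 500 higher and 539 lower genes against day 0 (115 and 79), and by mean per-cell CPM 141 lower. Kit in control members, at 0.302 of day 0 from 3 later UMIs, turned to 1.46 with the ribosomal limit and to 2.77 by per-cell means, and Prg2 in heme members, 3.09-fold higher later, turned to 0.408 in members with 10 or more Prss34 UMIs. The cause was not tested. Without thinning, members of day 0 with both lists numbered 27 and 79 in place of 13 and 50. Without the 5% of members with most UMIs, the later eosinophil list went from 3893 to 2164 CPM in the control, and the later neutrophil list from 5114 to 6733 CPM in the heme library. The settings that leave out members, use Prss34-rich members or leave out day 7 were chosen after seeing the data. No paired analysis was possible because each group is 1 library. With 40 and 46 later members, genes under 50 UMIs could not be compared.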
